A study of Mus musculus with 24 samples.

Results

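The genes described here make, remove or use nicotinamide adenine dinucleotide (NAD) in mouse liver. They are the NAD salvage genes Nampt, Nmnat1 and Nmnat3, the nicotinamide methyltransferase Nnmt, the NAD kinase Nadk, and the NAD consumers Sirt1, Sirt3, Sirt6 and Parp1. Members were chosen as every probe that carries 1 of these 9 gene names, which gave 13 of the 41174 probes and 9 of the 27597 names on the array. Nampt, Nmnat1, Sirt1 and Parp1 had 2 probes each and the other 5 genes had 1. The pair of Nampt probes carries that gene's older name, Pbef1, and was matched through its transcript accession. The brightest probe stands for a gene, and the other is called its second probe.

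The samples were livers of C57Bl/6J mice of 10 or 20 weeks, fed freely and kept under equal spans of light and dark. All mice carried the floxed allele of Mop3, an older name of Arntl (Bmal1), which encodes a core activator of the circadian clock. The control group, Mop3fxfx, carried the floxed allele alone (floxed livers). The other group, Mop3fxfxCreAlb, also carried Cre recombinase driven by the albumin gene, which is active in hepatocytes, so other liver cells keep the allele (Cre livers). No group carried Cre without the floxed allele. Livers were taken every 4 h from ZT0, when the lights came on, to ZT20. Each genotype, age and time had 1 two-colour array, 24 in all and 12 per genotype, with RNA pooled from at least 3 mice. The second dye carried a reference pool of liver RNA from the 10-week mice of both genotypes.

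NAD carries electrons in metabolism and is also split by enzymes that use it as a substrate. Nicotinamide released by that splitting is recycled by NAMPT, the rate-limiting enzyme of salvage, and the NMNAT enzymes then complete NAD. The sirtuins are NAD-dependent deacylases, and PARP1 builds ADP-ribose chains from NAD at damaged DNA. In liver, Nampt is a known target of the CLOCK and BMAL1 activators, and SIRT1 in turn acts on the clock.

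The sequences below are probes of Nampt and Parp1 and the bases before start sites of Nampt and Nadk, a pair of the 3 genes that differed. The 60 bases of the second Nampt probe lie in its coding sequence.

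Nampt second probe: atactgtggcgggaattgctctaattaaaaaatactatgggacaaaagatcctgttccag

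The probes of Parp1 are printed because they share 40 of their 60 bases, in capitals, so that they are not separate views of the transcript.

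Parp1 brightest probe: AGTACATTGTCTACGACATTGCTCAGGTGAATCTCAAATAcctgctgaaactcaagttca

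Parp1 second probe: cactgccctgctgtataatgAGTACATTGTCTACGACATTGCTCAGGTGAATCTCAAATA

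Promoters were available from RefSeq (build GRCm38.p6) for 8 of the 9 genes, as 12 windows of 250 bases before to 50 after a start site. Each was searched on both strands for the E-box CACGTG, the related CACGTT, the core of the ROR element, AGGTCA, and the D-box TTATGNAA. These letters do not overlap one another. The E-box was found in windows of 3 genes, Nadk, Sirt1 and Parp1, and stands in 7.15% of all 32851 windows. That core was found for Nampt and Nmnat3, against 16.3% of all windows. No member window held CACGTT or the D-box, which stand in 4.68% and 3.38% of all windows. The upstream bases of Nampt and of the Nadk start site that holds the E-box are given with these matches in capitals.

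Nampt, chr12:32820085-32820334, plus strand: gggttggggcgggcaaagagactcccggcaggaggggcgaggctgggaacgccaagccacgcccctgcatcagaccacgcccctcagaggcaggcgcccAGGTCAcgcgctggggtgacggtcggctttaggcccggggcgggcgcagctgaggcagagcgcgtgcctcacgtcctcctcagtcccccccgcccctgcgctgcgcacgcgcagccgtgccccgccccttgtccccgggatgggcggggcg

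Nadk, chr4:155563565-155563814, plus strand: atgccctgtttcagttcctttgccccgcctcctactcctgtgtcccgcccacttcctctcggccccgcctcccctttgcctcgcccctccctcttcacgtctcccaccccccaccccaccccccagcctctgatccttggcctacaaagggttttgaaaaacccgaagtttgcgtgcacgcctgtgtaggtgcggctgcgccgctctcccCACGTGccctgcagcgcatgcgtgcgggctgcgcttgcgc

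The AGGTCA of Nampt begins 151 bases before the start site, and the E-box of Nadk begins 40 bases before its start site. The window of the other Nadk start site, chr4:155562131-155562430, held none of the searched motifs. In Nmnat3, the other gene that differed, AGGTCA begins at base 24 after the start, so its upstream bases are not shown. Sirt1 held the E-box at 115 and at 43 bases before its start. A match describes letters only, and binding was not measured.

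Values are log2 ratios of Cy5 over Cy3, where Cy5 is taken to be the liver sample. The labels give the opposite dyes. The basis is the spread of the channels between arrays of a slide, which was wider in Cy5 for 86.6 to 92.9% of probes for each of 6 slides (the seventh carried a single array). If the labels are right, the sign of every ratio and difference of ratios below turns and every peak moves by 12 h. The amplitudes and p-values of those ratios stay. Values from Cy5 alone, and the filter on Cy5, would then describe the reference. As read here, the fitted floxed peaks of clock genes were at ZT 21.8 for Arntl, 6.8 for Nr1d1, 9.4 for Dbp and 13.2 for Per2. Arntl itself differed by -0.51 ± 0.17 in Cre minus floxed livers (SE, limma adjusted p = 0.038). In a fit with slide as a block it gave -0.25 and was not called (adjusted p = 0.28). Its amplitude, the distance from daily mean to peak, was 1.69 ± 0.17 in floxed livers and 0.22 ± 0.17 in Cre livers (SE; adjusted p of the difference in rhythm 0.035). Between 56.7 and 70.3% of the probes were well above background in Cy5 on each array, and 29479 probes entered the tests. Of the hepatocyte markers 8 of 8 measured were above background on every array, and 6 were saturated on at least 12 arrays. Pooled RNA from whole liver cannot tell fewer cells of a type from less RNA per cell.

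Nampt was lower in Cre livers, Nmnat3 was higher and Nadk was lower, averaged over the day. The differences were -0.72 ± 0.12 for Nampt, 0.60 ± 0.11 for Nmnat3 and -0.45 ± 0.10 for Nadk (SE, 12 arrays per genotype). The other 6 genes did not pass the test on their brightest probe. So 2 of 9 genes were lower, where 10.5% of all probes were, and 1 was higher, where 9.98% were. These small counts stand against a background of 20.5% called in either direction. The median difference was -0.02 over the 9 genes and -0.01 over all probes. Tests were limma fits with p adjusted by Benjamini-Hochberg over all 29479 probes, and 0.05 was the threshold.

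**Figure D1:**
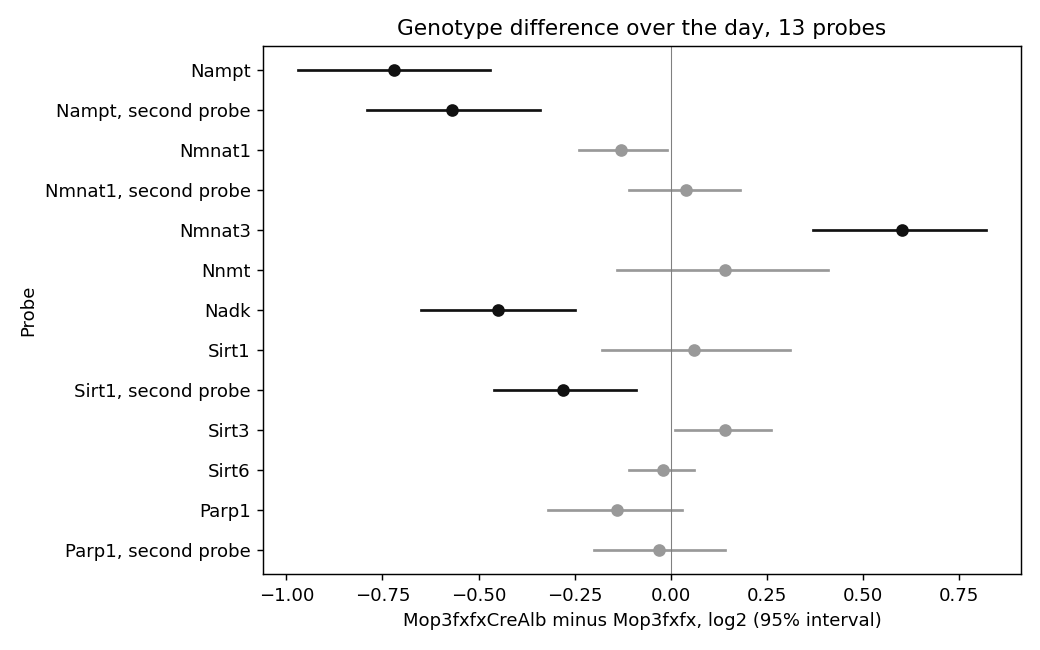
Genotype difference averaged over the day for the 13 probes, as Mop3fxfxCreAlb minus Mop3fxfx on the log2 scale, with points for the estimate and lines for its 95% interval. Probes with an adjusted p under 0.05 are black: both Nampt probes, Nmnat3, Nadk and the second Sirt1 probe, while the brightest Sirt1 probe lies at 0.06.

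Nampt encodes the enzyme that turns nicotinamide into nicotinamide mononucleotide. In 10-week floxed livers its log2 ratio was -0.56, -0.67, 0.36, 0.78, 0.74 and 0.09 from ZT0 to ZT20. In 20-week floxed livers it was 0.31, 0.58, 1.30, 1.79, 1.31 and 0.84 at the same times. Both ages were lowest at ZT0 or ZT4 and highest at ZT12. In 10-week Cre livers the ratio was -0.55, -0.69, -0.40, -0.10, 0.40 and -0.12. In 20-week Cre livers it was 0.14, -0.34, 0.02, 0.40, -0.22 and -0.30. The 10-week genotypes were nearly level at ZT0 and ZT4 and apart from ZT8 on, whereas at 20 weeks every Cre array lay below the floxed array of its time.

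**Figure D2:**
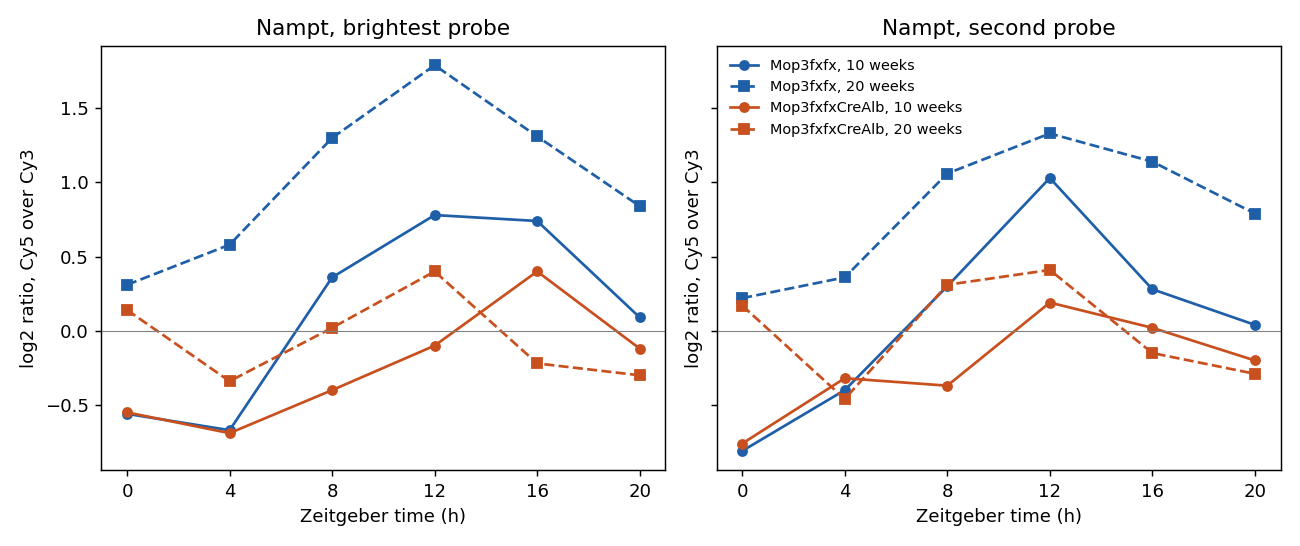
Log2 ratio of Nampt on each of the 24 arrays against zeitgeber time in h, with the brightest probe on the left and the second on the right. Blue is Mop3fxfx, orange Mop3fxfxCreAlb, solid lines 10 weeks and dashed lines 20 weeks; the 20-week floxed livers reach 1.79 at ZT12, and no Cre array exceeds 0.40 on the brightest probe.

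Over the day Nampt stood at 0.608 of its floxed level in Cre livers (limma adjusted p = 0.00038) and was lower in 11 of 12 pairs. A pair is the Cre and the floxed array that share age and time. The 20-week pairs and the 10-week pair of ZT16 each lay across slides. In these pairs genotype and slide cannot be told apart. The second probe gave -0.57 ± 0.11 (SE, limma adjusted p = 0.0012), lower in 10 of 12 pairs. Its Cy3 channel, read here as the reference, was less steady. The SD of log2 Cy3 was 0.30 over floxed and 0.44 over Cre arrays, against 0.07 and 0.08 on the brightest probe. By time, the difference on the brightest probe was -0.08, -0.47, -1.02, -1.13, -0.93 and -0.67 from ZT0 to ZT20, each with an SE of 0.34. No single time passed the test for Nampt, and the adjusted p was 0.98 at ZT0, 0.44 at ZT8 and 0.22 at ZT12. Of all probes 0.078% were called at ZT0, 0.112% at ZT4, 0.322% at ZT8, 0.366% at ZT12 and 0.0984% at ZT20. Within slides that held both genotypes at the same times, all of 10-week arrays, the difference was -0.48, -0.45 and 0.02. The last value rests on 1 array of each genotype, both of ZT0. The slide with both genotypes at 20 weeks gave -1.18, but there the genotypes also differ in time. With slide as a block the difference was -0.48 (adjusted p = 0.014). On the 10-week arrays alone it was -0.36 ± 0.08 (SE, limma adjusted p = 0.051).

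The Nampt rhythm was called in floxed livers. Its amplitude was 0.74 ± 0.12 (SE), a 2.78-fold range from trough to peak, with the peak at ZT 13.1 (limma F test, adjusted p = 0.0060). The second probe gave 0.67 ± 0.11 with a peak at ZT 12.8 (adjusted p = 0.0056). In Cre livers the amplitude was 0.28 ± 0.12 with a fitted peak at ZT 14.5, which did not pass the test (adjusted p = 0.70). The difference in rhythm between genotypes had an unadjusted p of 0.033 and an adjusted p of 1, so a change of the Nampt rhythm itself was not called. Of the 9 genes, 1 was rhythmic in floxed livers, where 1.3% of all probes were, and 0 in Cre livers, where 0% were and 2452 probes had an unadjusted p under 0.05 in limma. The difference in rhythm was called for 0 of 9 genes and for 0.0271% of all probes, with 829 at an unadjusted p under 0.05 and, with the Cy5 channel alone, 16 called.

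**Figure D3:**
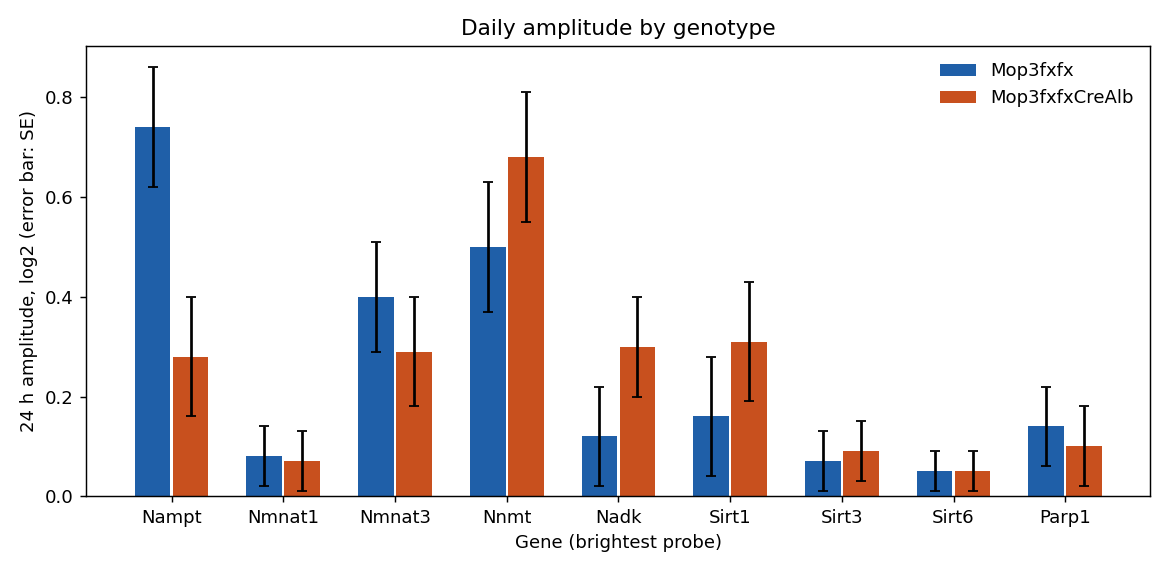
Daily amplitude of the 9 genes on the log2 scale, from the fitted 24 h cosine, with bars from 0 and error bars of 1 SE; blue is Mop3fxfx and orange Mop3fxfxCreAlb. Nampt has the highest floxed amplitude, 0.74, and Nnmt the highest amplitude in Cre livers, 0.68.

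The pattern of Nampt over the 12 floxed arrays was most like those of Ttc19, C730036E19Rik, Slc16a12, Gpt2 and Snhg8, by Pearson's r among 15919 genes. Their r was 0.966, 0.965, 0.959, 0.946 and 0.939, and 19 genes exceeded 0.9. These arrays share the reference, the slides and the split by age, so the values are a description. Over the Cre arrays the same genes gave 0.25, 0.51, 0.45, 0.61 and 0.14. Slc16a12, a monocarboxylate transporter family member, was itself lower in Cre livers by -0.90 ± 0.13 and Gpt2, an alanine transaminase, by -0.62 ± 0.10 (SE, adjusted p = 9e-05 and 0.00024). C730036E19Rik differed by -1.14 ± 0.18 (adjusted p = 0.00017) and Ttc19 by -0.18 ± 0.05 (adjusted p = 0.015). Snhg8 gave -0.06 ± 0.07 and did not pass (adjusted p = 0.60).

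Nmnat3 encodes the mitochondrial member of the enzymes that join nicotinamide mononucleotide to ATP's adenylate. In floxed livers its log2 ratio was -0.39, -0.48, -0.25, -0.97, -1.67 and -0.31 from ZT0 to ZT20 at 10 weeks. At 20 weeks it was -0.48, -0.41, -0.39, -0.47, -1.07 and -0.84. Both ages had their lowest value at ZT16. In Cre livers it was 0.05, 0.06, -0.40, -0.30, -0.26 and 0.00 at 10 weeks. At 20 weeks it was 0.19, 0.71, -0.19, -0.21, -0.16 and -0.02. The Cre arrays were higher in 11 of 12 pairs, all but ZT8 at 10 weeks, and the ranges of the genotypes overlapped.

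Averaged over the day Nmnat3 stood 1.51-fold higher in Cre livers (limma adjusted p = 0.00070). At ZT16 the difference was 1.16 ± 0.22 (SE, limma adjusted p = 0.049), where 0.315% of all probes were called. Both ZT16 pairs lay across slides, so genotype and slide cannot be told apart at that time. The ZT16 call was lost with the deposited log ratio (adjusted p = 0.054) and with no filter on dim probes (adjusted p = 0.064). At ZT8 the difference was 0.03 ± 0.22. Within the slides with matched times, which pair no ZT16 arrays, the mean difference was 0.08, 0.60 and 0.43. With slide as a block it was 0.58 (limma adjusted p = 0.036). Amplitudes of 0.40 in floxed and 0.29 in Cre livers did not pass the test (adjusted p = 0.17 and 0.60). Without the 10-week floxed array of ZT20 the floxed amplitude was 0.48 and passed (adjusted p = 0.029).

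Nmnat1, the nuclear enzyme of the same step, did not pass the test. Its ratio ran from -0.21 to 0.31 in floxed livers, median -0.03, and from -0.43 to 0.09 in Cre livers, median -0.20. The difference was -0.13 ± 0.06 (SE, limma adjusted p = 0.13) on the brightest probe and 0.04 ± 0.07 (adjusted p = 0.75) on the second. The 95% interval of the brightest probe was -0.24 to -0.01, and it was called in 1 of 15 other settings, array weights (-0.14, adjusted p = 0.048). Its amplitude was 0.08 in floxed and 0.07 in Cre livers.

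Nadk encodes the cytosolic kinase that makes NADP from NAD. In floxed livers its ratio was 0.25, 0.03, -0.02, 0.06, 0.48 and 0.14 from ZT0 to ZT20 at 10 weeks. At 20 weeks it was 0.96, 0.74, 0.50, 0.67, 0.69 and 0.65, and all 6 arrays lay above the 10-week ones. The ages lay on different slides. Cre livers had 0.14, -0.07, -0.25, -0.31, 0.15 and -0.09 at 10 weeks. At 20 weeks they had 0.78, 0.15, -0.01, -0.44, -0.21 and -0.10. The Cre array was the lower one in 12 of 12 pairs, which held for 2.61% of all probes.

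The Nadk difference of -0.45 ± 0.10 corresponds to 0.732 of the floxed level (SE, limma adjusted p = 0.0028). By age it was -0.23 at 10 weeks (adjusted p = 0.29) and -0.67 at 20 weeks (adjusted p = 0.0038). The term for age by genotype was -0.45 ± 0.17 and did not pass (adjusted p = 0.098). The 3 slides with matched times, all of 10 weeks, gave differences of -0.23, -0.24 and -0.10. The 20-week slide with both genotypes gave -0.20, but there the genotypes also differ in time. With slide as a block the Nadk difference was -0.26 and no longer called (adjusted p = 0.084). No rhythm was called for Nadk in either genotype.

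**Figure D4:**
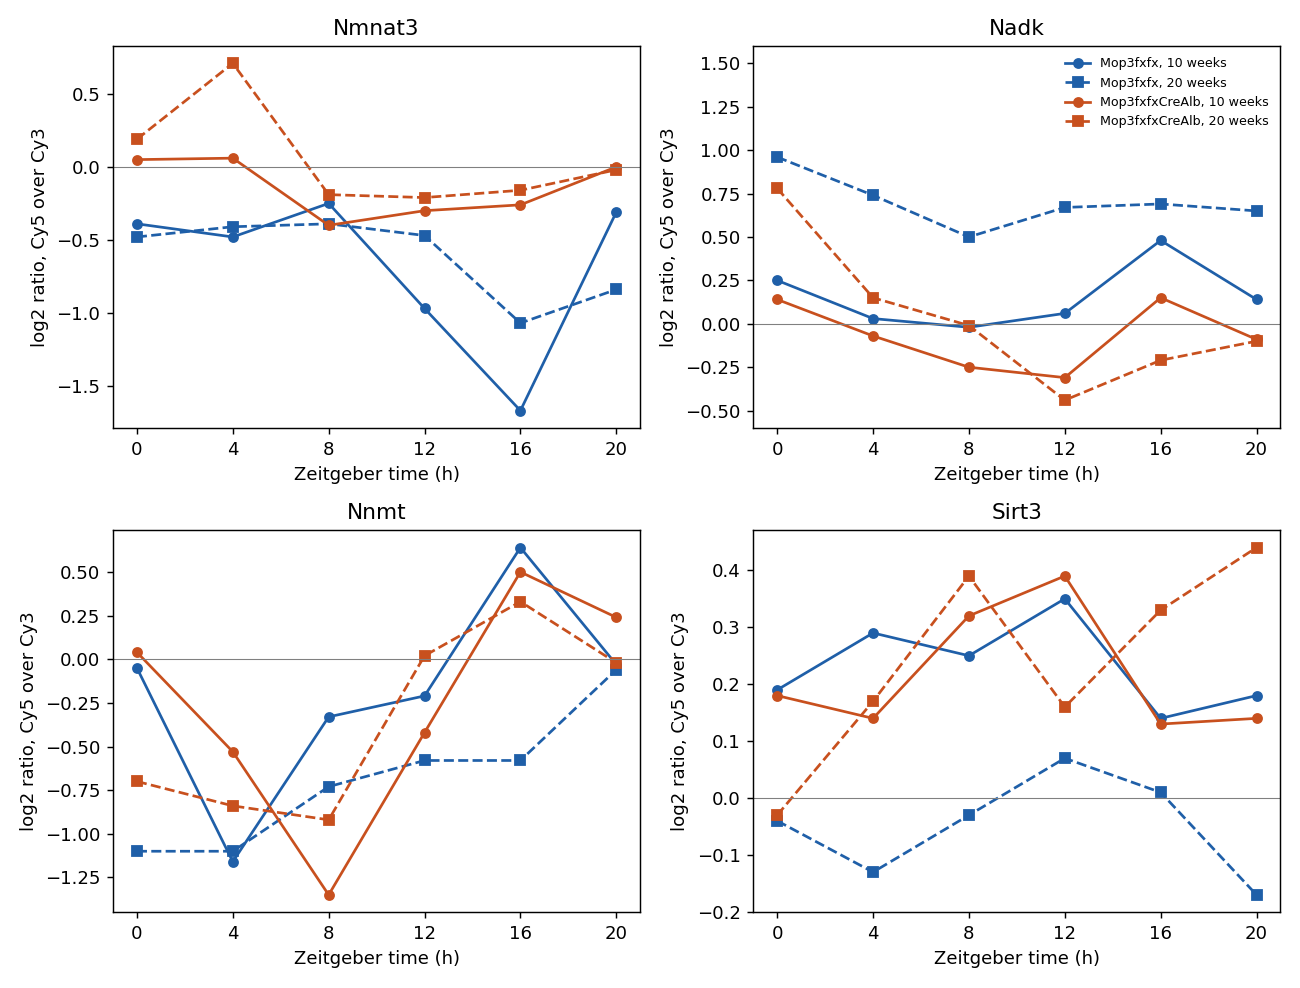
Log2 ratio of Nmnat3, Nadk, Nnmt and Sirt3 on each array against zeitgeber time in h, with the vertical scale set per gene. Blue is Mop3fxfx, orange Mop3fxfxCreAlb, solid 10 weeks and dashed 20 weeks; Nmnat3 falls to -1.67 at ZT16 in 10-week floxed livers, and the Nnmt point of 0.64 at ZT16 in 10-week floxed livers is a saturated spot.

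Nnmt encodes the enzyme that methylates nicotinamide and so removes it from salvage. In floxed livers its ratio was -0.05, -1.16, -0.33, -0.21, 0.64 and -0.03 from ZT0 to ZT20 at 10 weeks. At 20 weeks it was -1.10, -1.10, -0.73, -0.58, -0.58 and -0.06. Cre livers had 0.04, -0.53, -1.35, -0.42, 0.50 and 0.24 at 10 weeks and -0.70, -0.84, -0.92, 0.02, 0.33 and -0.02 at 20 weeks. Low values lay at ZT4 and ZT8 in Cre livers of both ages, and high ones at ZT16 or ZT20.

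The amplitude of Nnmt was 0.50 ± 0.13 with a peak at ZT 16.7 in floxed livers and 0.68 ± 0.13 with a peak at ZT 17.9 in Cre livers (SE). Neither passed the test over all probes (limma adjusted p = 0.15 and 0.17), although the unadjusted p in Cre livers was 0.00024. With array weights the Cre rhythm was called (amplitude 0.62, adjusted p = 0.044). The difference in rhythm had an adjusted p of 1. The genotype difference over the day was 0.14 ± 0.13 (95% interval -0.14 to 0.41, adjusted p = 0.50). The spot was saturated in Cy5 on 1 array of each genotype, the 10-week floxed array of ZT16, whose 0.64 is the highest value printed, and the 10-week Cre array of ZT0. It was saturated in Cy3 on 2 arrays. The size of these values is therefore not exact. Adh7 was most like Nnmt over the floxed arrays, with r = 0.881, then Tff3 (0.876), P4ha1 (0.869), Ceacam13 (0.867) and Polr2d (0.866), and none exceeded 0.9.

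Sirt1 encodes the nuclear NAD-dependent deacetylase, and its probes disagreed. The brightest probe ran from -0.88 to 0.18 in floxed livers, median -0.06, and from -0.65 to 0.72 in Cre livers, median -0.15. Its difference was 0.06 ± 0.12 (SE, limma adjusted p = 0.75). The second probe ran from -0.50 to 0.41 in floxed and from -0.68 to 0.06 in Cre livers, with a difference of -0.28 ± 0.09 (adjusted p = 0.030). At 20 weeks the brightest probe gave 0.29 (adjusted p = 0.23) and the second -0.47 (adjusted p = 0.0099). The call on the second probe was lost in 7 of 14 other settings and without 1 array in 10 of 24 cases. A direction for Sirt1 is therefore not given.

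Sirt3, the main mitochondrial deacetylase of the family, gave 0.14 ± 0.06 (SE, limma adjusted p = 0.11). In 10-week livers it ran from 0.14 to 0.35 in floxed and from 0.13 to 0.39 in Cre. The 20-week floxed livers ran from -0.17 to 0.07, below every 10-week array, and the 20-week Cre livers from -0.03 to 0.44. Here too the ages lay on different slides. On the 20-week arrays alone the difference was 0.29 ± 0.09 (SE, limma adjusted p = 0.039), higher in 6 of 6 pairs, which all lay across slides. The age by genotype term was 0.31 ± 0.10 and did not pass (adjusted p = 0.059). That term was called in 1 of 9 other settings, array weights (0.34, adjusted p = 0.022), and in 3 of 24 cases without 1 array, with an adjusted p down to 0.013. Those were the 20-week floxed array of ZT0 and the 20-week Cre arrays of ZT0 and ZT12. With slide as a block the difference over all arrays was 0.03 (adjusted p = 0.88).

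Sirt6, a chromatin deacylase, was dim, with Cy5 well above background on 9 of 12 floxed and 7 of 12 Cre arrays. Its ratio ran from -0.15 to 0.12 and from -0.19 to 0.08, with a difference of -0.02 ± 0.04 (SE, 95% interval -0.11 to 0.06, limma adjusted p = 0.73). Parp1 gave -0.14 ± 0.08 (95% interval -0.32 to 0.03, adjusted p = 0.25) on the brightest probe and -0.03 ± 0.08 (adjusted p = 0.82) on the second. It ran from -0.28 to 0.37 in floxed and from -0.50 to 0.33 in Cre livers. No rhythm was called for any sirtuin member or for Parp1, and the highest amplitude among them was 0.31 ± 0.12, for the brightest Sirt1 probe in Cre livers (SE, adjusted p = 0.61).

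Several of these values differed between the ages. No slide and no scan day held arrays of both ages, so age and slide cannot be told apart. The Nampt difference was -0.36 at 10 weeks and -1.07 ± 0.13 at 20 weeks (SE, limma adjusted p = 0.0011), and the term for age by genotype was -0.71 ± 0.19 (adjusted p = 0.028). It was the 1 gene of 9 called for that term, where 8.32% of all probes were. The second probe gave -0.51 (adjusted p = 0.099). Most 20-week floxed and Cre arrays lay on different slides, and with slide as a block the Nampt term was -0.26 (adjusted p = 0.62), so age by genotype and slide cannot be told apart. Of 47 cell type markers tested, 4 were called for the same term, a count near the 8.32% of all probes. They were Ttr (-1.12, adjusted p = 0.017), Clec4g (-0.73, adjusted p = 0.036), Cd68 (-0.60, adjusted p = 0.045) and Fgb (1.22, adjusted p = 0.040), the last saturated in Cy5 on all 24 arrays. Their part in the Nampt term was not tested. Nmnat3 differed by 0.53 at 10 and 0.66 at 20 weeks, with a term of 0.13 (adjusted p = 0.75).

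**Figure D5:**
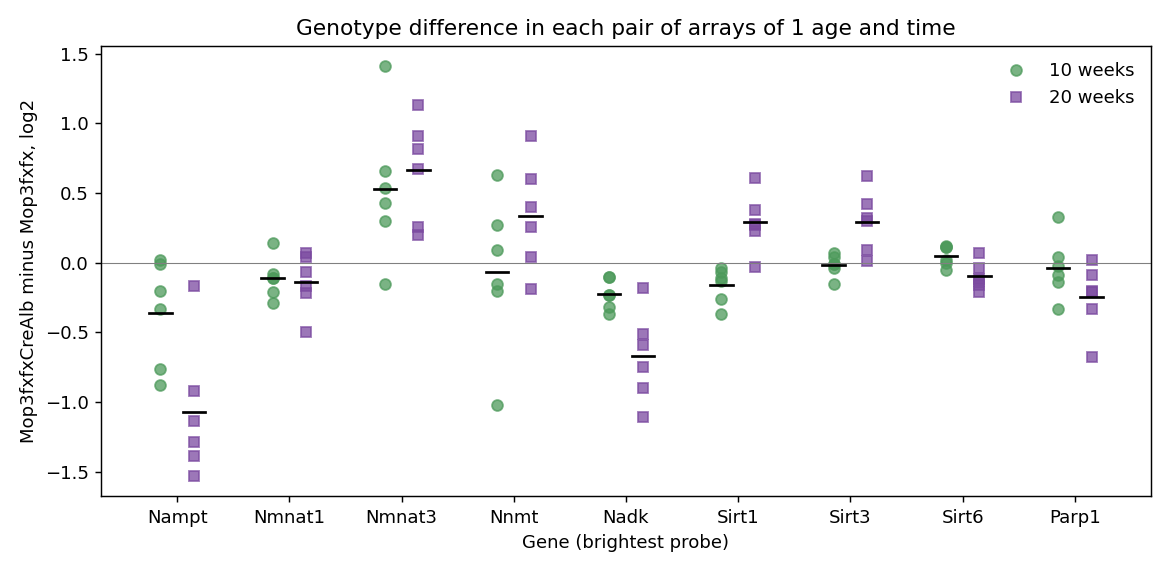
Mop3fxfxCreAlb minus Mop3fxfx in each of the 12 pairs that share age and time, for the brightest probe of each gene on the log2 scale; green circles are 10 weeks, purple squares 20 weeks, and black lines the means of 6 pairs. Nampt has means of -0.36 and -1.07, and all 12 pairs of Nadk lie below 0.

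Other genes of NAD metabolism were read on the same fit. Of 10 measured genes of the de novo and Preiss-Handler routes, which build NAD from tryptophan or nicotinic acid, 5 were lower and 1 higher in Cre livers, where 10.5% and 9.98% of all probes were. Their median difference was -0.32, against -0.01 over all probes. The lower ones included Afmid (-0.54 ± 0.12, adjusted p = 0.0048), Kmo (-0.34 ± 0.07, adjusted p = 0.0018) and Ido2 (-0.32 ± 0.07, adjusted p = 0.0033), which act in the route from tryptophan (SE, limma). The others were Qprt (-0.46 ± 0.10, adjusted p = 0.0047), which makes the mononucleotide from quinolinate, and Naprt (-0.48 ± 0.11, adjusted p = 0.0053), which starts from nicotinic acid (SE, limma). Kynu, which splits kynurenines, was higher by 0.77 ± 0.08 (adjusted p = 1.2e-06) and in 12 of 12 pairs, which held for 2.72% of all probes. Afmid and Kmo were lower in 12 of 12. Once slide was a block, Afmid (-0.76), Ido2 (-0.30), Kmo (-0.37) and Kynu (0.78) were called, while Naprt (-0.32, adjusted p = 0.079) and Qprt (-0.29, adjusted p = 0.15) were not. In that fit 3.92% of all probes were called lower and 4.07% higher.

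Of 9 measured genes of salvage and transport other than the members, 2 were lower and 1 higher, with a median of -0.20, against 10.5% and 9.98% of all probes. Nmrk1, the nicotinamide riboside kinase, was lower by -0.54 ± 0.09 (SE, limma adjusted p = 0.00054) and was rhythmic in floxed livers with an amplitude of 0.64 (adjusted p = 0.0025). Slc25a51, the mitochondrial NAD carrier, was lower by -0.62 ± 0.14 (adjusted p = 0.0035), and with slide as a block gave -0.31 and was not called (adjusted p = 0.29). Pnp, which frees nicotinamide from its riboside, was higher by 0.47 ± 0.07 (adjusted p = 0.00021). Of 19 measured NAD consumers other than the members, 3 were higher (Parp2, Parp16 and Tnks2) and 2 lower (Parp3 and Parp6), with a median of -0.01. These counts lie near the 9.98% and 10.5% of all probes, and with slide as a block none of the 19 was called in limma (3 had an unadjusted p under 0.05), the smallest adjusted p of these 5 being 0.062 for Parp16. Sirt2, Sirt4, Sirt5 and Sirt7 did not pass the test.

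Some markers of liver cell types were called for genotype, where 9.98% of all probes were called higher and 10.5% lower. Of the cholangiocyte list 2 of 5 were higher in Cre livers (Spp1 by 1.39 and Sox9 by 1.06), while its defining keratins Krt19 and Krt7 differed by -0.08 each and did not pass. Epcam differed by 0.01 and did not pass either. The summed Cy5 level of the list on the log2 scale ran from 12.40 to 13.89 in floxed and from 13.48 to 15.54 in Cre livers. The brightest genes weigh most in that sum, so it does not describe every gene of the list. Lrat and Lum were the 2 of 6 stellate and fibroblast markers that were higher. Of the adipocyte list 1 of 4 was lower, Cfd by -3.05, while Adipoq, Plin1 and Retn did not pass. Of the neutrophil list 1 of 6 was lower, Csf3r by -0.46. None of 6 macrophage, 5 endothelial, 5 lymphocyte and 2 muscle markers was called at an adjusted p under 0.05 in limma, and 1 of them, Cd68, had an unadjusted p under 0.05 (0.032). Of the hepatocyte list 1 of 8 was lower, Hnf4a by -0.41. However, 6 of these 8 were saturated in Cy5 on at least 12 arrays, which limits any difference they could show. Hnf4a was not among them. With slide as a block Spp1, Sox9, Lrat and Cfd were still called. Lum (0.41, limma adjusted p = 0.21), Csf3r (-0.35, adjusted p = 0.071) and Hnf4a (-0.25, adjusted p = 0.15) were not. The part of these changes in the values of Nampt, Nmnat3 and Nadk was not tested.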

How the data were processed

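The authors' deposited scanner files (Agilent Feature Extraction 9.1.3.1, per the file headers) hold the intensity of 45018 spots in Cy5 and Cy3, quality flags, and a normalised log10 ratio of Cy5 over Cy3. The log10 ratio in the authors' series matrix is identical (largest difference 0), with a median of 0 on each array. Here intensities were corrected with normexp (offset 50) and log ratios normalised by loess within each array in limma 3.58.1 (R 4.3.3), with the 1639 control spots and outlier spots at weight 0 and outlier spots left out. Spots of a probe were averaged. Probes well above background in Cy5 on at least 4 of 24 arrays were tested, 29479 of 41174.

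All arrays were fitted together with age and, per genotype, a mean and a cosine and sine of 24 h; a fit of time means gave differences at each time, and an added term the age by genotype difference. The code was tested on simulated data. Arrays lay on 7 slides scanned on 6 days. Each slide held only some of the times of day, so time and slide are partly mixed in the profiles over the day. There is no replicate array of 1 genotype, age and time, and the labels do not say whether pools share litters or cages, so p-values measure the spread between these arrays. The number of arrays limits the precision. Genes were named as every probe of the 9 genes, plus other NAD genes and, for Nampt and Nnmt, the 5 most alike genes. The members and lists were chosen with earlier results of these data known. Alternatives changed the normalisation, channel, filter, outlier spots, unit of test, slide, scan day, pairing, array weights, age and single arrays.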

Additional observations from a re-analysis of the deposited data

Results flagged for a closer look

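For Nampt the genotype difference was called as unequal between ages: the age by genotype term, 20-week minus 10-week difference of Mop3fxfxCreAlb minus Mop3fxfx, was -0.71 ± 0.19 (SE, limma adjusted p = 0.028), with all 6 pairs lower at 20 weeks and 5 of 6 at 10 weeks. With slide as a block the term was -0.26 (adjusted p = 0.62), and since most 20-week floxed and Cre arrays lay on different slides, age by genotype and slide cannot be told apart. Over the other settings the term ran from -0.71 to -0.26 and its adjusted p from 0.025 to 0.62. It was called in 5 of 9 other settings and without 1 array in 17 of 24 cases. The call was lost without the floxed arrays of 10 weeks at ZT4 or ZT12 or of 20 weeks at ZT8, and without the Cre arrays of 10 weeks at ZT16 or ZT20 or of 20 weeks at ZT16 or ZT20, with values between -0.70 and -0.60.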

How the results depend on the processing

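The genotype difference of Nampt kept its direction in all 15 other settings and was called in 14, all but the 10-week arrays alone, and without any single array. Nmnat3 was likewise called in 14 of 15 and Nadk in 13 of 15. The floxed Nampt rhythm was called in 11 of 13 settings, all but those with 1 age. With pairs of arrays of 1 age and time as a replicate block, Nampt gave -0.72 (adjusted p = 0.0020) and 6708 probes were called, and the block changed no call of a member. The pairing is by label, age and time. Calls were gained for Nmnat1 with array weights (-0.14) and for Sirt3 on 20-week arrays (0.29) and with the age by genotype term (0.14), which made 4 member genes called in each. Directions turned for values that were not called. With the deposited log ratio, the genotype difference of the second Nmnat1 probe was -0.05 and the age by genotype term of the second Parp1 probe -0.28. With Cy5 alone, the second Parp1 probe gave 0.12, and the term was 0.14 and 0.31 for the Nmnat1 probes. With slide as a block, Nnmt gave 0.00, Sirt1 -0.22 and Sirt6 0.03; with scan day Sirt1 gave -0.18 and Sirt6 0.04; on 10-week arrays Nnmt gave -0.06, Sirt1 -0.17, Sirt3 -0.01 and Sirt6 0.05, and 0 member genes were called. With slide as a random block (correlation 0.28), Sirt1 gave -0.05, and the term was 0.03 and 0.06 for Nmnat1 and -0.03 for the second Parp1 probe. Array weights gave a term of 0.05 for both Nmnat1 probes. The term with slide as a block, added after seeing the data, was 0.20 and 0.29 for Nmnat1, 0.05 for Nadk, -0.30 for Sirt1 and -0.26 for the second Parp1 probe. Without single arrays, Sirt1 ran from -0.02 to 0.12 and the second Parp1 probe from -0.07 to 0.01; the term ran from -0.08 to 0.04 and -0.06 to 0.07 for Nmnat1, -0.01 to 0.28 for Nmnat3 and -0.03 to 0.11 for the second Parp1 probe.

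Counts over all probes moved too. The 6033 genotype calls became 2357 with slide, 2621 with scan day, 9972 with array weights and 716 at 10 weeks. The 382 floxed rhythms became 651 with slide, 707 with random slide, 910 with scan day, 581 with weights, 5 at 10 weeks and 11 at 20 weeks, and 240 to 406 without single arrays. The 0 Cre rhythms became 15 with Cy5 alone, 1 with no filter, slide, random slide or 20-week arrays, 11 with scan day, 111 with weights and 5 with the age by genotype term added after seeing the data, and 0 to 19 without single arrays. The 8 rhythm differences became 16 with Cy5 alone, 5 with no filter, 19, 17 and 17 with slide, random slide and scan day, 0 at either age and 14 with the added term, and 2 to 12 without single arrays. The 2453 age by genotype calls became 1160 with the deposited ratio, 124 with Cy5 alone, 803 with random slide and 17 with slide as a block, and 1003 to 5920 without single arrays. With Cy5 alone 627 differences at single times were called. The single ages have fewer arrays; otherwise the cause was not tested. Sirt6 is limited by its low signal over background.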
